A study of Mus musculus with 8 samples.

Results

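Astrocytes were the 4810 nuclei that the deposited annotation of a brain single-nucleus RNA-seq data set names Astrocyte, out of 61949 nuclei in all. The nuclei came from hemispheres, from which the olfactory bulb and the cerebellum had been removed, of C57BL6/J mice aged 6 months of 4 genotypes with 2 libraries each: WT, Cnp-/-, 5xFAD and Cnp-/- 5xFAD. Cnp-/- animals lack functional CNPase in every cell from conception. Animals of the 5xFAD line carry human transgenes with familial Alzheimer mutations under the neuronal Thy1 promoter, and Cnp-/- 5xFAD animals carry both changes. The authors state that the animals of their Cnp crosses were females. The authors' reporting summary gives a pool of animals per single-cell replicate, whereas their methods state pooling only for another data set. The labels do not say how many animals a library held. The p-values between genotypes therefore measure the spread between libraries, which may in part be technical. Those between Gfap-positive and Gfap-negative nuclei, a split described below, measure the spread of the differences within libraries. The WT libraries held 787 and 479 astrocyte nuclei, the Cnp-/- libraries 391 and 647, the 5xFAD libraries 773 and 659, and the Cnp-/- 5xFAD libraries 484 and 590.

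Astrocytes clear glutamate and potassium from the extracellular space, cover blood vessels with endfeet that carry the water channel aquaporin-4, and are coupled to each other by gap junctions. They respond to injury, demyelination and amyloid with a graded reaction in which the intermediate filament genes Gfap and Vim, complement C4b and receptors of the interleukin-6 family are among the known responders. CNPase is a protein of non-compact myelin made by oligodendrocytes, and mice without it are known for axonal degeneration and gliosis. In healthy cortical grey matter few astrocytes make detectable Gfap, whereas those of white matter and of the brain surface do.

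The markers of astrocytes were high in each library. The authors set cell types from the marker genes of clusters, so these levels describe the label and are not independent evidence for it. Levels are given as CPM, the UMIs (unique molecular identifiers, 1 per captured RNA molecule) of a gene per 1e+06 UMIs summed over the astrocyte nuclei of a library. Slc1a2, the main glutamate transporter of astrocytes, stood at 7443 ± 882 CPM (mean ± SD, n = 8 libraries), against 240 ± 23.5 in neurons and 10.5 in mature oligodendrocytes (MOL in the annotation). Its partner Slc1a3 stood at 2618 CPM, aquaporin-4 (Aqp4) at 336, connexin 43 (Gja1) at 346 and glypican 5 (Gpc5) at 9206. In neurons these 4 genes were at 45.0, 2.83, 3.69 and 275 CPM. The next highest type for the first 4 markers was newly formed oligodendrocytes (NFOL), with 1383 CPM of Slc1a2, 657 of Slc1a3, 56.9 of Aqp4 and 57.6 of Gja1. Gpc5 was also high in oligodendrocyte precursors (OPC), at 4229 CPM, and in NFOL, at 3854. At least 1 UMI was found in 99.7% of astrocyte nuclei for Slc1a2, 98.1% for Gpc5, 96.5% for Slc1a3, 53.6% for Gja1 and 41.4% for Aqp4, and 98.3% of the nuclei held at least 3 of the 5. No nucleus lacked all 5.

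Depth and other cell types set the limits of these profiles. The astrocyte nuclei had a median of 2636 UMIs, from 2050 in Cnp-/- replicate 2 to 3044 in Cnp-/- 5xFAD replicate 1, and the summed profiles held between 1069318 and 2548569 UMIs. Only 2 of 4808 astrocyte barcodes occurred in more than 1 library. Summed markers of other cells were low: 8 neuron markers came to 3.74 to 106 CPM per library, 6 oligodendrocyte markers to 71.4 to 255, 6 microglia markers to 57.3 to 124, and 3 pericyte markers to 116 to 182. The 3 markers each of endothelial cells and OPC came to 2.75 to 17.1 and 44.6 to 78.6 CPM, and those of ependymal cells, choroid plexus and fibroblasts to at most 33.2, 8.63 and 22.6 CPM. At least 3 oligodendrocyte markers were present in 53 nuclei, at least 3 neuron markers in 28 and at least 3 microglia markers in 18. Single libraries stood apart in many genes. In Cnp-/- replicate 2, 289 of 10549 genes compared lay over 4 times below the lowest value of the other 7 libraries, against 32 to 103 genes in the others. In WT replicate 2, 69 genes lay over 4 times the highest other value, against 3 to 16 elsewhere. Both Cnp-/- libraries together lay over 4 times below the other 6 for 21 genes, and the 2 libraries of each other genotype did so for 2 to 6. These values stand beside every genotype contrast below, and their part in the contrasts was not tested.

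The share of astrocytes among all nuclei was lower, but not beyond the threshold, in the libraries without Cnp. Astrocytes made up 9.58% and 7.04% of the WT libraries, 4.88% and 7.33% of the Cnp-/- libraries, 10.4% and 9.12% of the 5xFAD libraries, and 6.92% and 6.98% of the Cnp-/- 5xFAD libraries. The ranges with and without Cnp overlapped through Cnp-/- replicate 2 and WT replicate 2. With Cnp loss the mean was 6.53% ± 1.11 (SD, n = 4) and otherwise 9.04% ± 1.43, a difference of -2.51 percentage points (two-sided exact permutation test, p = 0.0571, 0.114 after Benjamini-Hochberg adjustment over 4 share tests, smallest possible p = 0.0286). Without WT replicate 2 the difference was -3.17 points with an exact p of 0.0286. Counted among the nuclei that are not neurons it was -8.15 points with an exact p of 0.143. For 5xFAD the mean was 8.36% ± 1.70 against 7.21% ± 1.92 (exact permutation test, p = 0.486). This last difference changed sign when astrocytes were counted as a share of the nuclei that are not neurons, at -4.88 points, so it gives no direction for 5xFAD.

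The astrocytes were heterogeneous in Gfap (chr11:102887336-102900912, minus strand, mm10), the intermediate filament gene by which reactive and white matter astrocytes are recognized. A Gfap UMI was found in 1397 of 4810 nuclei (29.0%). Of these, 657 held exactly 1, 740 held 2 or more and 73 held 10 or more, and the highest nucleus held 119. The 73 highest nuclei carried 29.5% of all 4329 Gfap UMIs. Other cell types gave the background: a Gfap UMI was found in 1.00% of neurons, although their median depth was 9105 UMIs, in 0.249% of MOL at 1515, 0.769% of microglia at 1395, 3.22% of OPC at 3036 and 4.56% of endothelial nuclei at 3598. NFOL nuclei reached 13.1% at 4852 UMIs.

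Gfap-positive nuclei were most frequent in Cnp-/- replicate 2 and least frequent in WT. Their share was 17.3% (95% Wilson interval 14.8 to 20.1) and 16.1% (13.1 to 19.6) in WT and 29.4% (25.1 to 34.1) and 48.2% (44.4 to 52.1) in Cnp-/-. It was 26.1% (23.2 to 29.3) and 29.3% (25.9 to 32.9) in 5xFAD, and 39.3% (35.0 to 43.7) and 29.2% (25.6 to 32.9) in Cnp-/- 5xFAD. The intervals cover counting error only. With Cnp loss the mean was 36.5% ± 9.11 (SD, n = 4) and otherwise 22.2% ± 6.52, a difference of 14.3 percentage points (two-sided exact permutation test, p = 0.0571, adjusted 0.114), and the groups met at 29.2% and 29.3%. Nuclei with at least 2 Gfap UMIs made up 14.6%, 27.4%, 23.3% and 18.0% of the 4 libraries without Cnp and 8.77%, 7.93%, 13.2% and 11.8% of the 4 with it, which did not overlap (difference 10.4 points, exact p = 0.0286).

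Depth differed between libraries, so each nucleus was also thinned to 1522 UMIs, leaving out 479 shallower nuclei, of which 171 were in Cnp-/- replicate 2. The thinned shares were 10.8% and 12.2% in WT, 21.9% and 42.9% in Cnp-/-, 19.5% and 21.7% in 5xFAD, and 29.1% and 21.8% in Cnp-/- 5xFAD. The difference with Cnp loss was then 12.9 points (exact p = 0.0286), with the 2 closest libraries at 21.8% and 21.7%. For 5xFAD the unthinned shares were 31.0% ± 5.72 against 27.7% ± 14.9 (exact permutation test, p = 0.714). The test pooled WT with Cnp-/-, so the 14.9 holds their difference as well as the spread within each. Of the libraries with Cnp, 5xFAD (26.1% and 29.3%) lay above WT (17.3% and 16.1%). Without Cnp, Cnp-/- 5xFAD (39.3% and 29.2%) and Cnp-/- (29.4% and 48.2%) overlapped. No test was run within Cnp status. The sign of the pooled difference changed when either WT library was left out, which also shifted the mean without 5xFAD toward Cnp-/-. Within the nuclei that held no UMI of Agt, a gene described below, the shares were 16.5% and 14.2% in WT, 28.7% and 48.1% in Cnp-/-, 24.9% and 29.0% in 5xFAD, and 39.2% and 29.0% in Cnp-/- 5xFAD.

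**Figure D1:**
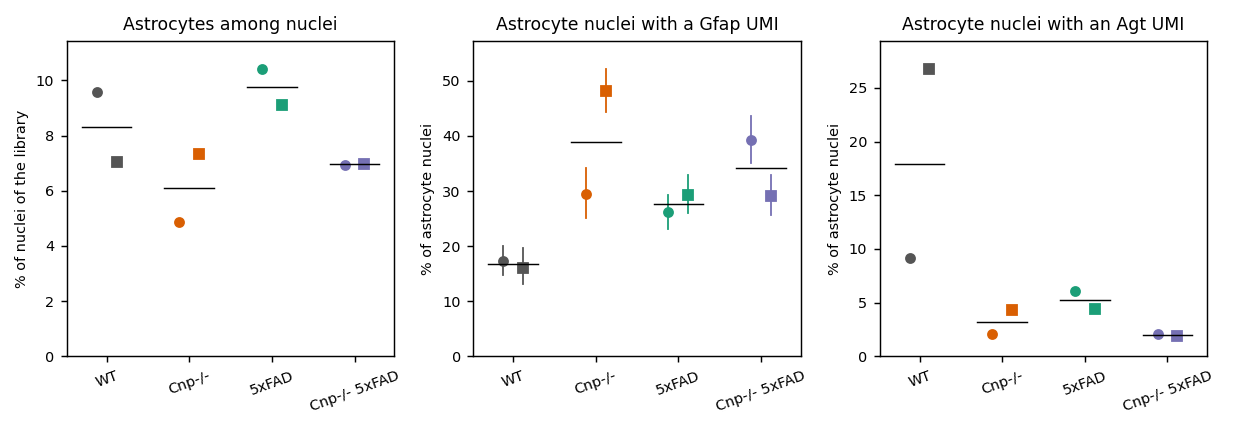
Percentages per library for astrocytes among all nuclei (left), astrocyte nuclei with a Gfap UMI with 95% Wilson intervals as vertical lines (middle) and astrocyte nuclei with an Agt UMI (right); circles are replicate 1, squares replicate 2 and horizontal lines the mean of each genotype. The 2 WT libraries are the lowest for Gfap, at 17.3% and 16.1%, and WT replicate 2 is the highest for Agt, at 26.7%.

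Gfap-positive and Gfap-negative nuclei of the same library differed in many genes. With the counts of each kind of nucleus summed per library and Gfap itself left out, 659 of 8614 genes tested were higher in Gfap-positive nuclei (7.65%) and 431 were lower (5.0%) at an adjusted p under 0.05 (edgeR quasi-likelihood test with library as a block, Benjamini-Hochberg). Of these, 393 (4.56%) and 272 (3.16%) went the same way in all 8 libraries. At an unadjusted p under 0.05 there were 2048 genes (23.8%), 1143 higher (13.3%) and 905 lower (10.5%), and DESeq2 called 738 (8.57%). Gfap-positive nuclei had a median of 2834 UMIs and Gfap-negative nuclei 2566. After thinning to 1522 UMIs, 849 of the 1090 called genes were still tested, 848 of them kept their sign and 456 were called. Because a nucleus was called positive from its own counts, the split describes what goes with a Gfap UMI and contains misses: at these depths a nucleus with no Gfap UMI may express the gene.

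The genes with the largest excess in Gfap-positive nuclei were led by Myoc, which encodes the secreted glycoprotein myocilin. Its level was 103 to 1255 CPM in Gfap-positive nuclei (median 303, 8 libraries) and 2.50 to 56.6 in Gfap-negative nuclei (median 30.0), so the ranges did not overlap. Its log2 fold change was 3.67 ± 0.34 (SE, edgeR adjusted p = 1.06e-06), and WT replicate 2 had the widest ratio. Vim, the second intermediate filament gene of reactive astrocytes, had a median of 106 CPM (44.7 to 363) against 20.0 (13.5 to 40.3). Its log2 fold change was 2.64 ± 0.25 (edgeR adjusted p = 9.63e-07). The other 8 genes of the first 10 were Fxyd6 (2.93 on the log2 scale), a regulator of the sodium-potassium pump, the taurine transporter Slc6a6 (2.77), the prostaglandin D synthase Ptgds (2.60), the protease inhibitor A2m (2.55), the actin-binding peptide Tmsb4x (2.55), the tubulin Tuba1a (2.50), the transcription factor Atoh8 (2.43) and the ribosomal stalk gene Rplp1 (2.42). Without WT replicate 2, the log2 fold change of Tuba1a was 1.88 and that of A2m was 3.25. None of these 10 genes would have passed the filter on low counts, 13.8 CPM in 8 profiles, on the Gfap-negative profiles alone. Of the 10, Vim, Fxyd6, Slc6a6, Ptgds, Tmsb4x, Tuba1a and Rplp1 had a higher mean in at least 1 other cell type than in astrocytes as a whole. Endothelial nuclei held 1565 CPM of Slc6a6, 1174 of Tmsb4x and 296 of Vim, and MOL held 1390 of Ptgds.

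The genes that were lower in Gfap-positive nuclei changed by less. The first was the noncoding RNA D030055H07Rik, at 7.87 to 41.0 CPM in Gfap-positive nuclei and 45.0 to 132 in Gfap-negative nuclei, with a log2 fold change of -1.52 ± 0.16 (edgeR adjusted p = 2.83e-06). The ranges did not overlap, and within each library the Gfap-positive value was the lower one. The synaptic vesicle priming gene Unc13c followed at -1.01, nephrin (Nphs1) at -0.98, the GABA-B receptor subunit Gabbr2 at -0.96, the predicted gene Gm28750 at -0.95 and Etnppl, an enzyme that breaks down phosphoethanolamine, at -0.93. The predicted gene Gm30606 stood at -0.92, the hedgehog effector Gli1 at -0.90, the glycosyltransferase Eogt at -0.89 and the metalloprotease Adamts10 at -0.88. Of the 20 genes, 9 had enough counts to be tested after thinning and all 9 were called there. Of the 10 lower genes, 6 would not have passed the filter on the Gfap-positive profiles alone. Nphs1, Etnppl, Gli1 and Adamts10 fell short of the threshold in 1 or 2 other alternatives each.

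**Figure D2:**
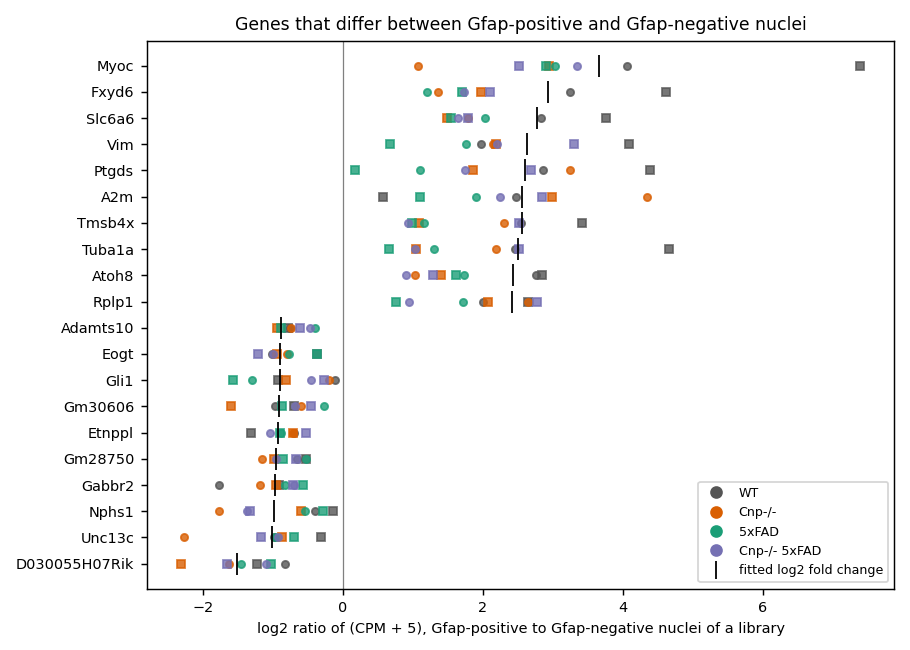
Log2 ratio of CPM + 5 between Gfap-positive and Gfap-negative nuclei of each library (circles replicate 1, squares replicate 2) for the 10 genes with the largest and the 10 with the smallest fitted log2 fold change (black ticks) among those called and going 1 way in all 8 libraries. All points of a gene lie on the same side of 0, and WT replicate 2 lies farthest out for Myoc, at 7.39.

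Of 24 identity genes of astrocytes, all tested, 10 were higher in Gfap-positive nuclei, 4 were lower and 10 did not pass, and the median log2 fold change was 0.12 against -0.01 over all genes tested. Aqp4 was 358 to 1137 CPM in Gfap-positive and 125 to 299 in Gfap-negative nuclei, without overlap (log2 fold change 1.61 ± 0.09, edgeR adjusted p = 4.20e-09). Aldoc (0.93), an enzyme of glycolysis, the endfoot membrane protein Mlc1 (0.73), the sodium pump subunit Atp1b2 (0.47) and Gja1 (0.41) were also higher. Gpc5 was lower, at 5220 to 8640 CPM against 9134 to 10584, without overlap (-0.45 ± 0.06, edgeR adjusted p = 7.51e-05), and so was Slc1a3 (-0.23 ± 0.05, edgeR adjusted p = 0.00667). Slc1a2 stood at 0.08 ± 0.05 and did not pass (edgeR adjusted p = 0.409). Summed, the 5 markers of the annotation averaged 18649 CPM in Gfap-positive and 20507 in Gfap-negative nuclei, and were higher in Gfap-positive nuclei in 0 of 8 libraries.

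Genes of glutamate and GABA handling were lower or did not pass. Of 15 listed, 14 were tested, 6 were lower and none was higher (edgeR, also 0 higher at an unadjusted p under 0.05), with a median of -0.13. Slc7a10, which carries D-serine and other small neutral amino acids, was 129 to 210 CPM in Gfap-positive and 242 to 417 in Gfap-negative nuclei, without overlap (-0.63). The metabotropic receptor Grm3 stood at -0.48, the NMDA receptor subunit Grin2c at -0.40 and the GABA transaminase Abat at -0.32. Among the 16 factors that act on synapses, 13 were tested, 3 were higher and 7 lower, with thrombospondin 4 (Thbs4, 1.89) and Sparc (0.76) on one side and the phagocytic receptor Mertk (-0.47) and Chrdl1 (-0.46) on the other. Of the 13, 2, Thbs4 and Sparc, would not have passed the filter on low counts on the Gfap-negative profiles alone. The list of potassium, water and endfoot genes gave 5 higher and 1 lower of 15 tested. Of the 15, 1, Slc12a2, would not have passed the filter on the Gfap-negative or on the Gfap-positive profiles alone. Of 3 gap junction genes, of which 2 were tested, Gja1 was higher.

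Genes of the reactive and white matter lists that were tested were higher in Gfap-positive nuclei. These lists share genes with each other, Vim being in 3 of them, so their counts are not separate. The filter on low counts also admits a gene through the profiles in which it is high: 2271 of all 8614 genes tested would not have passed it on the Gfap-negative profiles alone, among them 5 of 7 tested white matter genes, 3 of 14 disease-associated genes and 4 of 4 pan-reactive genes, so the counts of these lists are in part set by the filter. Of the 8 white matter genes, 7 were tested and higher (Gfap is the eighth), including Cd44 (2.25), a hyaluronan receptor, and Thbs4. Of 16 disease-associated astrocyte genes, 14 were tested and 14 were higher, among them Fabp7 (1.66), a fatty acid-binding protein. Of 13 pan-reactive genes only 4 had enough counts, and Vim, Cd44, Aspg (2.03) and the oncostatin M receptor Osmr (1.86) were higher. Of 11 genes of the A1 list only Ggta1 was tested and was higher (1.53), and none of the 12 A2 genes was tested. The A2 genes with the highest levels, S100a10 and Cd109, had means of 21.4 and 10.4 CPM in Gfap-positive and 7.89 and 1.65 in Gfap-negative nuclei. Of 13 complement genes, C4b (1.65) and clusterin (Clu, 1.32) were tested and higher. C4b was 152 to 369 CPM in Gfap-positive and 16.7 to 167 in Gfap-negative nuclei.

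Metabolic and stress lists were mixed. Of 12 lipid carrier and efflux genes, 10 were tested and 5 were higher, among them Fabp7, Clu, apolipoprotein E (Apoe, 1.22) and Fabp5 (1.15). Of the 10, 2 would not have passed the filter on low counts on the Gfap-negative profiles alone. Of 28 genes of sterol and fatty acid synthesis, all tested, 7 were higher and none lower (edgeR, also 0 lower at an unadjusted p under 0.05), led by the desaturases Scd1 (1.35) and Scd2 (0.75), followed by Hmgcs1 (0.57). Of the 28, 2 would not have passed the filter on the Gfap-negative profiles alone, Scd1 among them. Of 14 tested genes of glycolysis, lactate and glycogen, Gapdh (1.503), Aldoc, Pkm (0.65) and Ldhb were higher and the glycogen synthase Gys1 (-0.47) lower. Of the 14, 2 would not have passed the filter on the Gfap-negative or on the Gfap-positive profiles alone. Of 7 tested heat shock and unfolded protein genes, of which 4 would not have passed the filter on the Gfap-negative profiles alone, 4 were higher, led by Hsp90aa1 (2.23) and Hspa8 (1.97), with Hsp90ab1 (1.08) and Hsp90b1 (0.40). In the list of signalling and transcription genes 7 of 27 tested were higher, among them the BMP targets Id1 (1.65) and Id3 (1.46), Nfkbia (0.90) and Stat3 (0.66), and 6 were lower (Gli2, Gli3, Ptch1, Fgfr2, Fgfr3 and Egfr). Of the 27, 1 would not have passed the filter on the Gfap-negative profiles alone. Of 14 tested clock genes, Npas2 (-0.39) and Per2 (-0.46) were lower, and 1 of the 14 passed the filter only through the Gfap-negative profiles. Stat2 (0.69) was the 1 interferon and antigen presentation gene called among 4 tested. Of the immediate early genes 2 were tested, and neither passed, with Btg2 at -0.20 and Jun at 0.51.

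**Figure D3:**
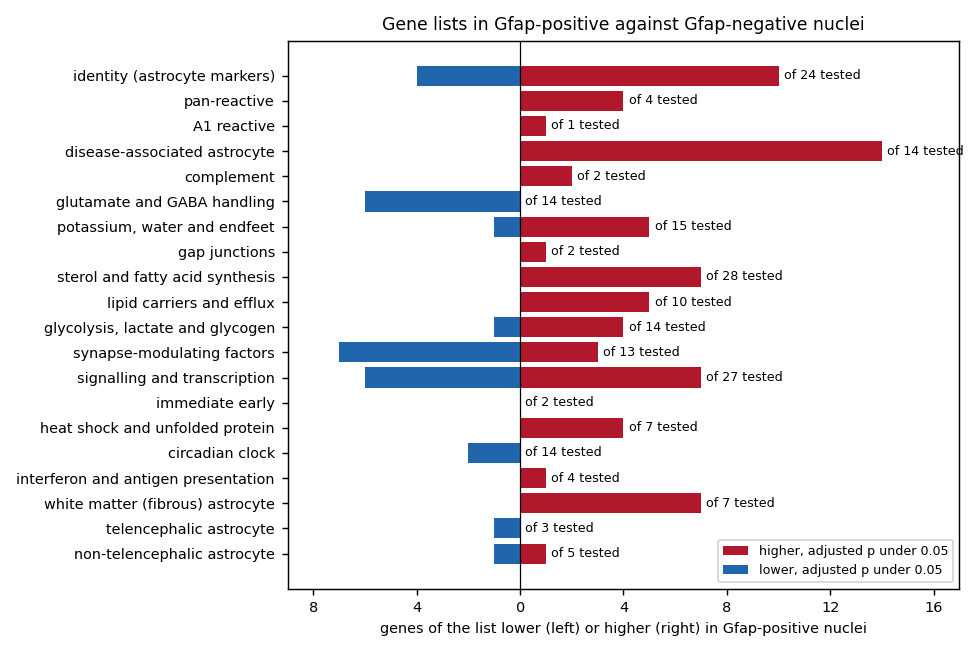
Number of genes of each list that were higher (right, red) or lower (left, blue) in Gfap-positive than in Gfap-negative nuclei at an edgeR adjusted p under 0.05, with the number tested beside each bar. The disease-associated and white matter lists have no gene on the left, and the glutamate and GABA list has none on the right; over all genes 7.65% were higher and 5.0% lower.

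RNA of another kind moved with the split. Of 83 ribosomal protein genes, 59 were tested and 54 were higher in Gfap-positive nuclei. Of the 59 tested, 52 would not have passed the filter on the Gfap-negative profiles alone. The summed level of the 83 genes was 2147 to 9247 CPM against 803 to 1773. Of 13 mitochondrially encoded genes 8 were tested, 5 of which would not have passed on the Gfap-negative profiles alone, and the 8 were higher. The 13 summed to 515 to 1840 CPM against 87.1 to 968. Gm42418, a gene model that overlaps ribosomal RNA sequence, was 1569 to 15157 CPM against 628 to 3693. After thinning, 16 of 22 tested ribosomal protein genes and 6 of 6 mitochondrial genes were higher. Markers of some other cells, but not of all, were also higher in Gfap-positive nuclei. The summed neuron markers averaged 126 CPM against 23.3 and were higher in 8 of 8 libraries, oligodendrocyte markers 212 against 102 in 7 of 8, and microglia markers 124 against 69.0 in 8 of 8. Ependymal markers averaged 26.3 CPM against 6.45. Endothelial markers stood at 14.2 against 8.03, OPC markers at 65.2 against 63.6, pericyte markers at 132 against 147, fibroblast markers at 11.5 against 18.2 and choroid plexus markers at 5.23 against 0.453. The part of these RNAs in the other differences was not tested.

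The comparison of genotypes asked how astrocytes of 6-month-old brains differ with loss of the myelin protein and with amyloid pathology. For Cnp loss (the mean of Cnp-/- and Cnp-/- 5xFAD against the mean of WT and 5xFAD), 11809 genes were tested and none passed (0.0%, edgeR quasi-likelihood test). At an unadjusted p under 0.05 there were 641 genes (5.43%), 243 higher (2.06%) and 398 lower (3.37%), and DESeq2 called 7 genes (0.0593%): C4b, Osmr and Serpina3n higher, and Cnp, Sorbs2, Fam173a and Gm29683 lower. These 7, and other genes named here for genotype with Cnp, Socs3 and Sox4 among them, were chosen after their values were seen or as members of the lists. The 4 libraries without Cnp lay wholly above the other 4 for 187 genes (1.58%) and wholly below them for 170 (1.44%).

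Cnp itself (chr11:100574904-100591729, plus strand, mm10), which astrocytes scarcely express, was 33.0 and 68.4 CPM in WT and 30.2 and 27.9 in 5xFAD. In Cnp-/- it was 9.35 and 7.55, and in Cnp-/- 5xFAD 11 and 9.56. The groups did not overlap, as the labels require, and reads over the gene were still present in the 4 libraries without functional Cnp (10, 11, 18 and 15 UMIs).

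Complement C4b (chr17:34728380-34743882, minus strand), an opsonin of the classical pathway, was higher in each library without Cnp. It was 69.5 and 61.1 CPM in WT, 180 and 255 in Cnp-/-, 125 and 118 in 5xFAD and 211 and 150 in Cnp-/- 5xFAD. WT was lowest, 5xFAD intermediate, and the 4 libraries without Cnp were the 4 highest. The log2 fold change was 1.15 ± 0.16 with an edgeR adjusted p of 0.72 (unadjusted p = 0.000156), and DESeq2 gave an adjusted p of 6.53e-05. Over all alternatives the value ran from 1.01 to 1.31 and the adjusted p from 1.69e-13, without a filter on low counts, to 1.00. In MOL the same gene was 15.5 and 16.9 CPM in WT, 170 and 112 in 5xFAD, and 290 to 305 in the 4 libraries without Cnp. Neurons had at most 4.92 CPM.

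Osmr, the receptor of the interleukin-6 family cytokine oncostatin M, showed the same order. It was 11 and 3.98 CPM in WT, 48.6 and 58.3 in Cnp-/-, 24.1 and 23.4 in 5xFAD and 41.5 and 37.6 in Cnp-/- 5xFAD, with a log2 fold change of 1.74 ± 0.27 (edgeR adjusted p = 0.72). MOL had at most 3.36 CPM of it, whereas its mean was 181 CPM in pericytes and 112 in endothelial nuclei, against 31.1 in astrocytes. In pericytes the libraries overlapped, at 143 to 304 CPM without Cnp and 107 to 152 with it. Serpina3n, a secreted protease inhibitor and a known marker of reactive astrocytes, was 0.392 and 3.32 CPM in WT (1 and 5 UMIs), 14.0 and 35.0 in Cnp-/-, 4.02 and 5.58 in 5xFAD and 17.1 and 27.4 in Cnp-/- 5xFAD. Its log2 fold change was 3.03 ± 0.59 (edgeR adjusted p = 0.72), and the counts in WT and 5xFAD were 10 UMIs or fewer per library. It passed the filter on low counts, 6.24 CPM in 2 libraries, only through the libraries without Cnp, so that it could be tested only because it was high there. It ran from 2.52 without WT replicate 1 to 3.98 without WT replicate 2. Both genes separated the libraries with and without Cnp without overlap.

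Socs3, the feedback inhibitor of the same receptor pathway, was not seen in WT (0 of 2548569 and 0 of 1506185 UMIs, which allows up to 1.18 and 1.99 CPM). It was 6.55 and 10.3 CPM in Cnp-/-, 2.01 and 3.35 in 5xFAD and 5.49 and 7.01 in Cnp-/- 5xFAD, from 5 to 15 UMIs per library, and it too passed the filter only through the libraries without Cnp. The 250 bases before the start of Socs3 (chr11:117969367-117969616, minus strand, RefSeq, GRCm38.p6) are printed beside those of Gfap (chr11:102897201-102897450, minus strand), because Socs3 and Gfap are both known targets of STAT3, to show where the letters TTCNNNGAA occur. Read on both strands, on which this pattern is the same, they occur once before Socs3, starting 154 bases upstream (in capitals), and do not occur in this window of Gfap. The window of Gfap lies before its RefSeq start and inside the gene span given above. Bases before the start of that span were not searched. Of 32851 promoter windows 7.02% hold a match, and neither the window of Osmr nor that of Serpina3n does. Of the genes in the plot of ratios, none of the 7 higher and 5 lower genes with a window does.
Gfap: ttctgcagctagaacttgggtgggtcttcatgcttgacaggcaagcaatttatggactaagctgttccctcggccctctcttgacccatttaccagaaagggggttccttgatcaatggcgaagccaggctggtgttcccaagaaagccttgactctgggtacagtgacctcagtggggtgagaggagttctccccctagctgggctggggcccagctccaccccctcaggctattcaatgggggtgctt
Socs3: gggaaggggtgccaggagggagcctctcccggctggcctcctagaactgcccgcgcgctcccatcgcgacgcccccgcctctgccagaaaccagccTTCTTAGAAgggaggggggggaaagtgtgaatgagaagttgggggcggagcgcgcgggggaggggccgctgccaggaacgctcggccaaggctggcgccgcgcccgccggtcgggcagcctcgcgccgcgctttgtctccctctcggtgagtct

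Gfap and Vim had higher means with Cnp loss but overlapped between groups. Gfap was 162 and 329 CPM in WT, 327 and 563 in Cnp-/-, 220 and 252 in 5xFAD and 356 and 426 in Cnp-/- 5xFAD (log2 fold change 0.79 ± 0.26, edgeR adjusted p = 0.846). WT replicate 2 lay above Cnp-/- replicate 1. Vim gave 1.07 ± 0.45 (edgeR adjusted p = 0.918). Without the 333 nuclei that held an Agt UMI, described below, Gfap gave 1.27 (edgeR adjusted p = 0.438, with 1.44e-08 to 1.00 over all alternatives). Thbs4, an extracellular matrix protein of white matter astrocytes, was 22.4 and 16.6 CPM in WT, 55.2 and 82.3 in Cnp-/-, 19.7 and 32.9 in 5xFAD and 39.7 and 45.3 in Cnp-/- 5xFAD. Those groups did not overlap, and its log2 fold change was 1.25 ± 0.22 (edgeR adjusted p = 0.72). Ggta1 (0.97), gelsolin (Gsn, 0.95), Aspg (1.15), Cd109 (1.84), Slc7a11 (0.31), which exchanges cystine for glutamate, and Hspa8 (0.56) were wholly higher in the 4 libraries without Cnp, each with an edgeR adjusted p of at least 0.763. Of these, Cd109 passed the filter only through the libraries without Cnp. Tnc (-0.57), Ptch1 (-0.38), Smo (-0.29), Itih3 (-0.72) and Fdft1 (-0.22) were wholly lower, with edgeR adjusted p values of at least 0.763. Of all genes tested, 1.58% were wholly higher and 1.44% wholly lower. Mbp, a marker of oligodendrocytes, was 46.8 to 120 CPM in these profiles without Cnp and 22.3 to 57.8 with it.

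No member of the lists of reactive genes passed with edgeR for Cnp loss, and DESeq2 called Osmr, Serpina3n and C4b. Of the 16 disease-associated astrocyte genes, all tested, 5 were wholly higher in the libraries without Cnp (Ggta1, Gsn, C4b, Osmr and Serpina3n, the last admitted as described above), where 1.58% of all genes were wholly higher and 1.44% wholly lower. The 8 white matter genes, all tested, had a median log2 fold change of 0.78 against -0.01 over all genes, with Thbs4 wholly higher and Tnc wholly lower. Of 13 pan-reactive genes 8 were tested, and Serpina3n, Osmr and Aspg of them were wholly higher. Of the 8, 2 passed the filter on low counts only through the libraries without Cnp, as did 2 of 3 tested A1 genes, 1 of 2 tested A2 genes and 5 of 11 tested interferon and antigen presentation genes, so no median is given for these lists, nor for the disease-associated, complement, glycolysis, synapse-modulating, signalling, immediate early and heat shock lists, each of which held at least 1 gene that passed through only one side. The 5 genes typical of astrocytes outside the telencephalon had a median of -0.72, and their sum was 1378 CPM in WT replicate 2 against 411 to 803 in the other libraries. The other lists had medians between -0.13 and 0.11: identity, glutamate and GABA, potassium and endfeet, gap junctions, sterol and fatty acid synthesis, lipid carriers, clock and telencephalic genes. In all 21 lists 0 genes passed with edgeR for any genotype contrast. Of the 5 identity markers, Slc1a2 gave 0.25 ± 0.08 (edgeR adjusted p = 0.825), at 6572 and 6466 CPM in WT, 7887 and 8730 in Cnp-/-, 7047 and 7093 in 5xFAD and 7089 and 8656 in Cnp-/- 5xFAD, with overlap between the libraries with and without Cnp. Slc1a3 gave 0.12, Aqp4 0.21, Gja1 0.11 and Gpc5 -0.04, with edgeR adjusted p values from 0.983 to 0.992.

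**Figure D4:**
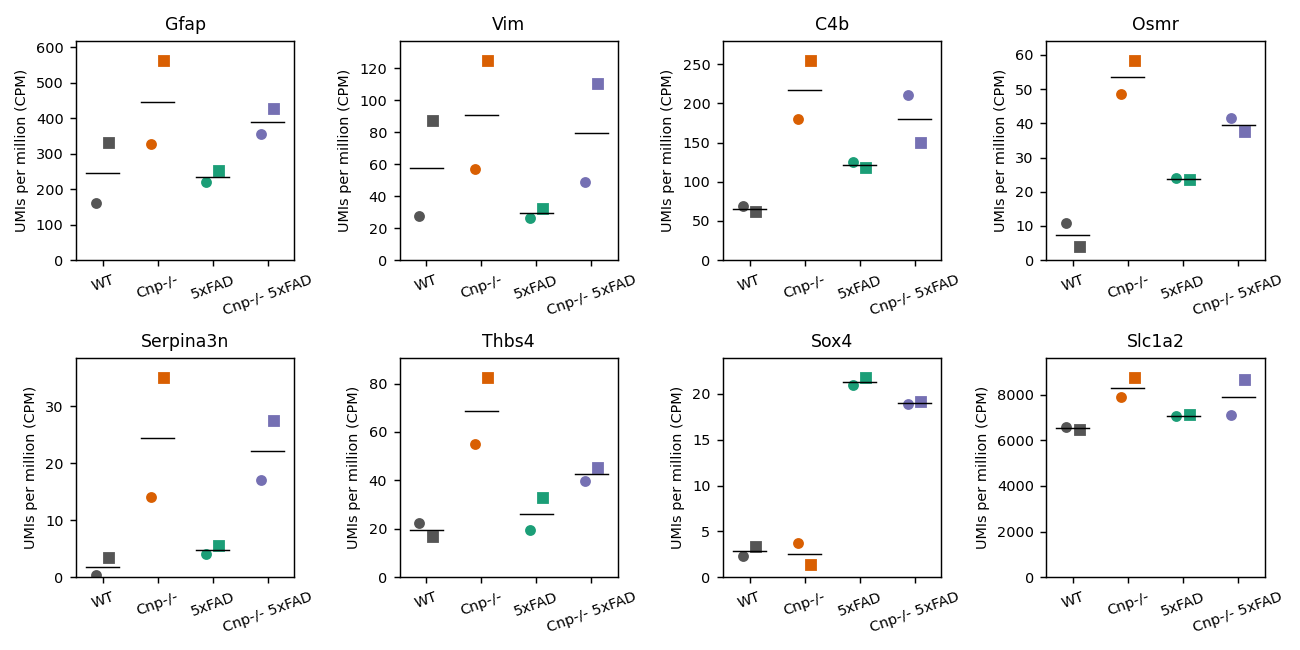
CPM per library of 8 genes in astrocytes (circles replicate 1, squares replicate 2, horizontal lines genotype means). C4b, Osmr, Serpina3n and Thbs4 are higher in each of the 4 libraries without Cnp than in any of the others, Gfap and Vim overlap, and Sox4 separates the 4 libraries with the 5xFAD transgenes, at 18.9 to 21.7 CPM, from the 4 without, at 1.37 to 3.74.

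Within Gfap-positive nuclei alone, C4b did not overlap between libraries with and without Cnp. It was 152 and 235 CPM in WT, 369 and 335 in Cnp-/-, 250 and 179 in 5xFAD and 317 and 285 in Cnp-/- 5xFAD. In Gfap-negative nuclei it was 48.6 and 16.7, 84.3 and 167, 74.8 and 87.4, and 124 and 78.0 CPM in the same order, with overlap. Osmr did not overlap in either: in Gfap-positive nuclei it was 61.0 to 109 CPM without Cnp and 6.54 to 53.0 with it, and in Gfap-negative nuclei 15.6 to 28.8 and 3.33 to 12.9. Thbs4 in Gfap-positive nuclei was 78.6 to 130 CPM without Cnp and 31.5 to 55.6 with it, whereas in Gfap-negative nuclei it was 7.77 to 30.2 without Cnp and 6.67 to 33.6 with it, with overlap. These are values of split profiles and were not tested between genotypes. C4b, Osmr and Thbs4 already did not overlap in the whole profiles, of which the Gfap-positive nuclei are a part. The share of all genes that do not overlap in the split profiles was not counted.

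**Figure D5:**
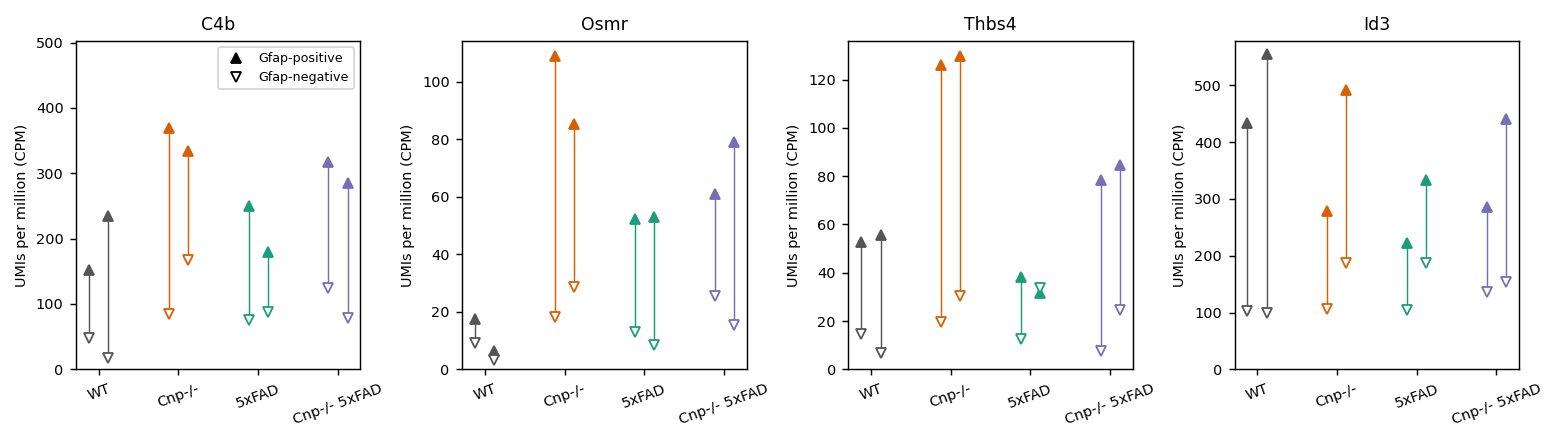
CPM of C4b, Osmr, Thbs4 and Id3 in Gfap-positive (filled triangles) and Gfap-negative nuclei (open triangles) of each library, with a line joining the pair. The Gfap-positive value is the higher one in all 8 libraries for C4b, Osmr and Id3 and in 7 of 8 for Thbs4. For C4b, Osmr and Thbs4 the Gfap-positive values of the 4 libraries without Cnp exceed those of the 4 with it, as in the whole profiles.

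For 5xFAD (the mean of 5xFAD and Cnp-/- 5xFAD against the mean of WT and Cnp-/-), none of 11809 genes passed (0.0%, edgeR quasi-likelihood test). At an unadjusted p under 0.05 there were 574 (4.86%), 346 higher (2.93%) and 228 lower (1.93%), and DESeq2 called 2 (0.0169%), Sox4 higher and Gm29683 lower. Sox4 (chr13:28948919-28953713, minus strand), a transcription factor of neural progenitors and immature cells, was 2.35 and 3.32 CPM in WT and 3.74 and 1.37 in Cnp-/-. It was 20.9 and 21.7 CPM in 5xFAD and 18.9 and 19.1 in Cnp-/- 5xFAD. The 4 libraries with the transgenes held 30 to 52 UMIs of it and the 4 without 2 to 6, so the groups were far apart. The gene passed the filter of 6.24 CPM in 2 libraries only through the libraries with the transgenes, so that it could be tested only because it was high there. The log2 fold change was 2.90 ± 0.38 (edgeR adjusted p = 0.937, DESeq2 adjusted p = 0.00322), from 2.60 to 3.32 over all alternatives, with adjusted p values from 1.24e-05 to 1.00. In neurons Sox4 went the other way without overlap, at 8.38 to 9.28 CPM with the transgenes and 10.6 to 15.8 without. In OPC the groups overlapped, at 49.9 to 77.2 and 66.7 to 103. Over all genes, 240 (2.03%) lay wholly higher and 118 (0.999%) wholly lower with 5xFAD.

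No reactive gene passed for 5xFAD. Gfap gave -0.14 ± 0.26, C4b 0.29 ± 0.16, Osmr 0.56 ± 0.26 and Serpina3n 0.66 ± 0.58 on the log2 scale, with edgeR adjusted p values from 0.974 to 0.99. The value of Gfap was 0.23 without the nuclei that held an Agt UMI, and that of Serpina3n was 0.16 without WT replicate 1 and 1.61 without WT replicate 2. Osmr ran from 0.33 without WT replicate 2 to 1.04 without WT replicate 1, and C4b was 0.17 without Cnp-/- 5xFAD replicate 1, 0.19 without Cnp-/- replicate 1 and 0.43 without Cnp-/- replicate 2. In the WT and 5xFAD libraries alone C4b was 69.5 and 61.1 against 125 and 118 CPM, and Osmr 11 and 3.98 against 24.1 and 23.4. The pan-reactive list had a median of -0.15, the disease-associated list -0.12, and the white matter list -0.27 with 0 of 8 genes above 0, against 0.00 over all genes. Of the complement, A1, immediate early and interferon lists 4 of 13, 3 of 11, 4 of 10 and 11 of 16 genes were tested. No median is given for them or for the A2, glutamate and GABA, gap junction, signalling and heat shock lists, since at least 1 gene of each passed the filter through only one side. Lipid carriers (-0.54) and non-telencephalic genes (-0.89) had the lowest of the medians given. WT replicate 2 held 5037 CPM of the lipid carrier Apoe against 1362 to 3781 elsewhere, and 1378 CPM of the summed non-telencephalic genes against 411 to 803. The other lists lay between -0.19 and 0.03. The list genes that were wholly higher with 5xFAD, as 2.03% of all genes were, were Ifit3 (1.18 to 4.65 CPM without, 5.63 to 11.2 with), which passed the filter only through the libraries with 5xFAD, Cry2 and Btg2. Btg2 was 1.37 CPM in Cnp-/- replicate 2 and 27.2 to 33.4 in the other 3 libraries without the transgenes.

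The interaction asked whether the effect of Cnp loss differed with and without the 5xFAD transgenes. None of 11809 genes passed (0.0%, edgeR quasi-likelihood test), 493 had an unadjusted p under 0.05 (4.17%), 378 above 0 (3.2%) and 115 below (0.974%), and DESeq2 called 9 (0.0762%), all above 0. These 9 were Pax3, Kdsr, Cacnb2, Kcnj3, Rasgrp1, Syndig1, Lekr1, Zfp932 and Samd8. Zfp932 was 1.87 and 2.06 CPM in Cnp-/- and 16.2 to 37.8 in the other 6 libraries. Kdsr, an enzyme of sphingolipid synthesis, was 3.74 and 2.74 CPM in Cnp-/- and 16.1 to 39.2 elsewhere. In both genes the 2 Cnp-/- libraries stood apart from the other 6. C4b had an interaction of -1.07 ± 0.31 (edgeR adjusted p = 0.959) and Osmr one of -1.94 ± 0.53 (edgeR adjusted p = 0.919). Cnp-/- and Cnp-/- 5xFAD overlapped in C4b, and in Osmr Cnp-/- 5xFAD lay below Cnp-/-.

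Levels of genes typical of astrocytes outside the telencephalon differed between libraries. Agt, angiotensinogen, is one of them. A UMI of it was found in 9.15% and 26.7% of WT astrocyte nuclei, 2.05% and 4.33% in Cnp-/-, 6.08% and 4.40% in 5xFAD and 2.07% and 1.86% in Cnp-/- 5xFAD, and 333 nuclei (6.92%) held one in all. WT replicate 2 stood far above the rest, at 188 CPM against 6.1 to 32.6. The GABA transporter Slc6a11 (649 CPM against 294 to 569), the glycine transporter Slc6a9 (100 against 15.9 to 47.9), Itih3 (216 against 68.3 to 117) and Sparc (225 against 18.5 to 62.4), which complete that list, were also highest there. Between Gfap-positive and Gfap-negative nuclei, Agt was 5.42 to 255 and 5.62 to 171 CPM (log2 fold change 0.57 ± 0.20, edgeR adjusted p = 0.0679). Sparc was higher (0.76), but would not have passed the filter on low counts on the Gfap-negative profiles alone. Itih3 was lower (-0.36), as was Mfge8 (-0.36), a gene of the telencephalic list. When the 333 nuclei were left out, an alternative added after these values were seen, edgeR still called 0 genes in each of the 3 genotype contrasts, while Gfap moved as given above. The regional make-up of the libraries was not measured.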

How the data were processed

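Nuclei from frozen hemispheres were profiled with the 10x Genomics Chromium 3′ chemistry. Per the labels, the authors used Cell Ranger 6.1.2 and the mm10 genome, and they deposited whole-number UMI counts per gene and nucleus together with a cell type for each nucleus. Per their methods, ambient transcripts were removed with CellBender in the 6-month data. Whether the deposited counts are its output was not checked. Removal of doublets from these data is not given in the sources used here, and no doublet caller was run. The deposited nuclei held at least 501 UMIs and 301 genes.

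Counts of the nuclei annotated as Astrocyte were summed per library and tested with edgeR 4.0.16 (filterByExpr, TMM, quasi-likelihood, 1 mean per genotype, 8 libraries, Benjamini-Hochberg over all genes tested, threshold 0.05). Gfap-positive nuclei held at least 1 Gfap UMI, and their sums were compared with those of the other astrocyte nuclei with library as a block and Gfap left out. SEs were derived from the fold change and its F statistic. CPM used all UMIs of a profile. A floor of 3 UMIs per library was used for counts of 0. For shares, exact permutation tests went through all arrangements of the libraries and were read from both tails. Each pooled the genotypes on either side, so the SDs and p-values of shares include differences between those genotypes. Means of shares were taken over libraries and not over genotypes. Wilson intervals came from SciPy 1.17.1. Thinning drew 1522 UMIs per nucleus without replacement. Alternatives used DESeq2 1.42.0 and limma 3.58.1. Gene positions came from GENCODE mouse release 21 (mm10) and promoter windows from RefSeq (GRCm38.p6).

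The members and the 21 gene lists were chosen with earlier results of these data known, and the lists share genes. Of their genes, 1, Bmal1, was not in the table under that symbol, where Arntl was. Named genes were the 5 markers and Gfap, up to 10 genes per direction in each test that passed the threshold (for genotype with non-overlapping libraries, for Gfap with the same sign in 8 libraries), and of each list up to 4 genes past the threshold, or else its 2 highest. Other genes were chosen after their values were seen. Microglia tables and columns of the authors' own clusters were not used here. A few genes of the lists are not reported here by name.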

Additional observations from a re-analysis of the deposited data

Results flagged for a closer look

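Single libraries stood apart from the others of their group in 10 of 76 groups of 4 or 8 libraries that were examined, where chance gives about 1 in 20. The groups share libraries, so these 10 are not independent of each other. Among the 4 libraries without Cnp, Cnp-/- replicate 1 had the lowest share of astrocytes, 4.88%, and Cnp-/- replicate 2 the highest Agt, 21.3 CPM. Among the 4 libraries with Cnp, WT replicate 2 was highest for Aqp4 (434 CPM), Gja1 (477 CPM) and Agt (188 CPM), and for Agt also among the 4 libraries without 5xFAD. Among the 4 libraries with 5xFAD, Cnp-/- 5xFAD replicate 2 had the highest Slc1a2, 8656 CPM. Between Gfap-positive and Gfap-negative nuclei, WT replicate 2 had the largest log2 ratios of Myoc (7.39) and Tuba1a (4.66), from 77 Gfap-positive nuclei, and Cnp-/- replicate 1 the lowest of Unc13c (-2.27).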

How the results depend on the processing

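For the 3 genotype contrasts 0 genes were called under 16 of 18 alternatives (edgeR or limma), including each library left out (0 to 0), DESeq2 size factors, equal numbers of nuclei, nuclei with at least 1000 UMIs, no nuclei of the top 10% by UMIs, robust dispersions and limma-voom with quality weights (the last 2 and the omission of Agt nuclei were added after seeing the data). Without a filter on low counts (22783 genes) 358 genes were called for Cnp loss (61 higher, 297 lower), 352 for 5xFAD and 389 for the interaction, and DESeq2 called 7, 2 and 9. The cause was not tested.

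The 1090 genes of the Gfap split became 1826 without a filter (22782 genes), 505 after thinning (6187 genes tested), 412 without the library block and 479 with the replicate block, and 835 to 1072 with 1 library left out. DESeq2 called 738. None of its named genes changed direction under these alternatives, and 79 of 1033 values of named genes lost their call. In the genotype contrasts only part of the named genes was followed through the alternatives, for Cnp loss and for 5xFAD. Of these, 6 values of uncalled genes changed sign. For Cnp loss these were Aqp4 at -0.21 without Cnp-/- replicate 2 (-0.21 to 0.47 with 1 library left out), and Gja1 at -0.082 without Cnp-/- replicate 2 and -0.070 without WT replicate 1 (-0.082 to 0.34). For 5xFAD it was Gfap, at 0.23 without the Agt nuclei, 0.078 without Cnp-/- replicate 2 and 0.17 without WT replicate 2 (-0.36 to 0.17).

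For the share of astrocytes the difference with Cnp loss was -3.17 to -1.96 points with 1 library left out. Its exact p then ran from 0.0286, past the threshold at -3.17 without WT replicate 2, to 0.0857. Among nuclei that are not neurons the exact p was 0.143, and among nuclei with at least 1000 UMIs it was 0.114. For 5xFAD the difference was 0.37 to 1.94 and, among nuclei that are not neurons, -4.88. For the share of Gfap-positive nuclei the difference with Cnp loss was 12.9 after thinning and 10.4 for 2 or more UMIs (each exact p = 0.0286). Among nuclei with at least 1000 UMIs it was 14.7 (exact p = 0.0571). With 1 library left out it was 10.4 to 16.8, the last without Cnp-/- 5xFAD replicate 2 (exact p = 0.0286). The exact p was 0.143 without WT replicate 1, WT replicate 2 or 5xFAD replicate 1. For 5xFAD the difference was -0.68 to 10.0, with -0.28 and -0.68 when WT replicate 1 or 2 was left out. In each of these ranges, leaving out a library also changed the balance of genotypes on its side.

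Same-numbered libraries were not paired by the labels, and their deviations correlated at -0.04 to 0.10. With the replicate block, 0 genes were called in the 3 genotype contrasts, and permuting within replicate numbers gave exact p values of 0.111 for both shares with Cnp loss, 0.5 and 0.778 with 5xFAD. With 2 libraries per genotype and a biological coefficient of variation of 0.292, small differences cannot be seen, and genes with few UMIs were not tested.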
